A study of Mus musculus with 2 samples.

Results

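Amino acid transporters of the SLC1, SLC6, SLC7, SLC36, SLC38 and SLC43 families were examined in MS-1 and SVEC4-10, mouse cell lines labelled as endothelial, on Affymetrix arrays. The markers given further on went against that label for SVEC4-10. The members are the genes whose symbol begins with one of these 6 family names, taken from probe sets that the platform annotation assigns to 1 gene. The rule found 61 genes with 123 probe sets, of 18193 genes on the array. It took 21 genes from SLC6, 16 from SLC7, 9 from SLC38, 7 from SLC1, 5 from SLC36 and 3 from SLC43. Matching by symbol also brought in 3 genes that carry the name of a transporter gene with the ending os (opposite strand), Slc7a6os, Slc36a1os and Slc6a19os, and these were counted as members and named apart.

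MS-1 derives from the microvessels of the pancreas and SVEC4-10 from an axillary lymph node, and both lines are immortalised with the SV40 large T antigen. MS-1 was grown in DMEM with 5% fetal calf serum and SVEC4-10 in DMEM with 10%, each for 3 to 5 days to confluence and for no more than 5 passages, and no agent or allele was compared. Each line gave 1 RNA sample and 1 array, so differences between the lines could not be tested against replicates, and serum and line cannot be told apart. The lines are single immortalised cultures, and the strain of origin is not given in the sources used here.

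Cells take up and exchange amino acids through carriers that differ in substrate and driving force. SLC1 and SLC6 carriers use the sodium gradient, SLC36 carriers use protons, and SLC38 carriers move small neutral amino acids with sodium. SLC7 holds the cationic amino acid carriers and the light chains, which pair with the SLC3 heavy chains to make exchangers. In endothelium, cationic amino acid carriers bring in arginine, the substrate of nitric oxide synthase. When amino acids are short, the factor ATF4 is known to raise the transcription of many of these genes through the C/EBP-ATF element, and amino acids at the lysosome activate the kinase complex mTORC1.

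Signals are the deposited linear intensities, and each log2 ratio sets SVEC4-10 against MS-1. Background was set at the 95th percentile of 129 probe sets for odorant, vomeronasal and taste receptors and hair keratin-associated proteins, and lay at 16.3 in MS-1 and 17.6 in SVEC4-10. A gene was measured if a probe set exceeded background on at least 1 array, and values under background were raised to it, so a fold written as "at least" is a lower bound. The error of a log2 ratio, taken as the standard deviation between 2 measured probe sets of one gene, was 0.59 (6110 genes), and 0.75 over the 18 members that allowed the estimate. Over probe sets above background on both arrays, an estimate chosen after seeing the data, it was 0.48 (4813 genes) and 0.59 (11 members). Of the 37 measured members described here, 23 had a log2 ratio smaller than the error over all genes. These include Slc1a2, Slc1a3, Slc38a3, Slc38a5 and Slc6a19, whose ratios are lower bounds, so the error does not measure their spread. This error holds no variation between cultures.

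The cell types were checked by markers. Of 15 measured endothelial markers, 13 were at least 2-fold higher in MS-1, 0 in SVEC4-10, and 12 were at background in SVEC4-10, among them Pecam1 (4777 and 1.27). Their summed signal was 32390 in MS-1 and 195 in SVEC4-10. Of 10 measured mesenchymal markers, 9 were higher in SVEC4-10, with summed signals of 149 and 34372, and 7 were at background in MS-1. Of 7 measured epithelial and mesothelial markers, 4 were higher in SVEC4-10 and 2 in MS-1, and Upk3b had signals of 1.88 and 6148. Of 7 leukocyte markers on the array, Ptprc, Itgam and Cd3e stayed at background in both lines, and Cd68 (3645 and 45.9) was the one measured marker that was at least 2-fold apart. The SVEC4-10 array thus lacked signal for most genes that define endothelium, and the part of cell identity in the transporter differences was not tested.

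Of the 61 members, 37 were measured: 28 above background on both arrays, 3 in MS-1 only and 6 in SVEC4-10 only. At least 2-fold higher signal in MS-1 was found for 6 members (16.2% of those measured, against 12.1% of all 12583 measured genes): Slc7a7, Slc38a4, Slc1a5, Slc7a11, Slc43a2 and Slc1a4. On the SVEC4-10 array, 4 members were at least 2-fold higher (10.8%, against 15.1% of all measured genes): Slc1a6, Slc6a6, Slc7a2 and Slc6a8. The other 27 measured members (73.0%) were within 2-fold, against 72.8% of all measured genes. At least 4-fold differences were found for 3 members towards SVEC4-10 (5.71% of all measured genes) and 2 towards MS-1 (4.24% of all measured genes). These shares lie near those of all genes, so the counts are no result about the families as a whole, and the differences are given member by member. In RNA of a whole culture, fewer expressing cells and less RNA per cell cannot be told apart.

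The median log2 ratio of the measured members was -0.086, against 0.015 for all measured genes, with quartiles of -0.64 and 0.28 against -0.50 and 0.58. Scaling to 21 probe sets of poly-A control transcripts, which lowers every log2 ratio by 0.54, gave 3 members at least 2-fold higher in SVEC4-10 and 13 in MS-1. The same scaling gave 8.41% and 26.7% of all measured genes, and it moved the median of all measured genes to -0.53. Under it, each log2 ratio between 0 and 0.54 changes sign, and each from 1 to 1.54 falls below 2-fold, which holds for members and for the related lists alike. A second probe set was measured for 8 of the 10 members past 2-fold, and the probe sets had the same sign in 8 of 8 of these genes. In 4 of these 8 genes the probe sets lay more than 1 log2 unit apart. Among the 18 members for which more than 1 probe set was measured, 5 gave opposite signs, and 9 had probe sets more than 1 log2 unit apart.

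**Figure D1:**
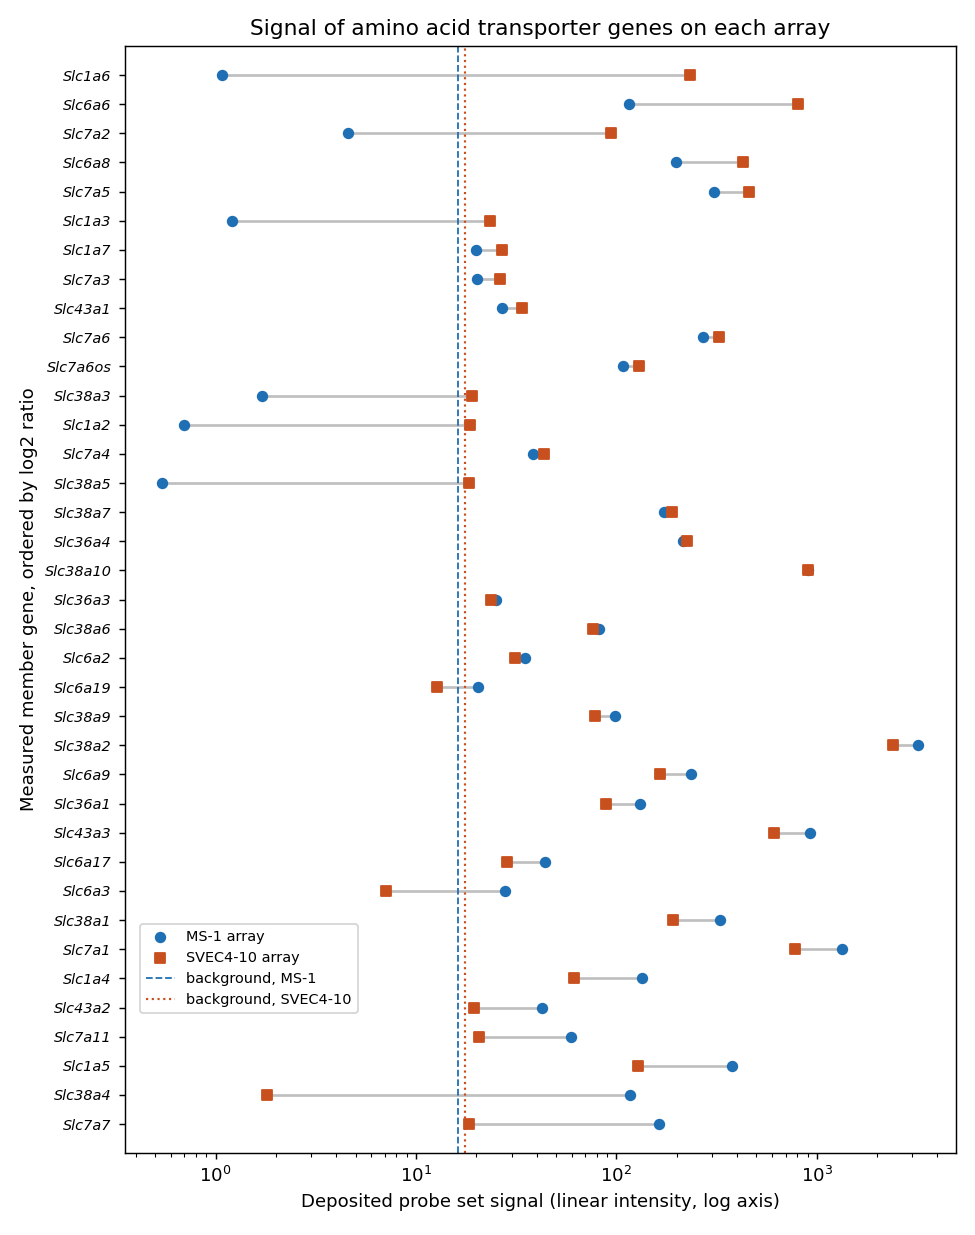
Deposited signal (linear intensity on a log axis) of the probe set used for each of the 37 measured members in MS-1 (circles) and the SVEC4-10 array (squares), ordered by log2 ratio, with the background of each array as vertical lines. Most pairs lie close together, while Slc1a6, Slc7a2 and Slc38a4 have 1 array well above background and the other below it.

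The 7 members of SLC1 are the glutamate transporters and the neutral amino acid exchangers. Of the 5 glutamate transporters, 1 was at least 2-fold higher in SVEC4-10, 3 were within 2-fold and 1 was not above background, while both neutral exchangers were higher in MS-1. Slc1a6 encodes the glutamate transporter best known from cerebellar Purkinje cells. Its signal was 1.08 in MS-1, below background, and 233 in SVEC4-10. This was at least 14.3-fold higher in SVEC4-10, a log2 ratio of at least 3.84, and the highest ratio among the members. The bound depends on the background, being 2.84 with background doubled and 7.75 without a floor, so the error between probe sets does not measure its spread. The gene has 1 probe set, so no other probe set bears on it. The related astrocyte glutamate transporters were close to background: Slc1a3 had signals of 1.21 and 23.4, and Slc1a2 of 0.696 and 18.7. Slc1a7, a glutamate transporter of the retina, had signals of 19.95 and 27.0, a log2 ratio of 0.44 that is within the error. Slc1a1, the glutamate and cysteine transporter of neurons and kidney, was not above background at any of its 3 probe sets.

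Both neutral exchangers of SLC1 had higher signal in MS-1. Slc1a5, which carries glutamine into proliferating cells, had signals of 380.0 and 128, a 2.96-fold difference (log2 ratio -1.57 ± 0.59) from its 1 measured probe set. Slc1a4, an exchanger of alanine, serine and cysteine, had signals of 135 and 61.6, a 2.18-fold difference. Its other probe sets gave 80.0 and 45.7, and 106 and 78.0, with log2 ratios of -0.81 and -0.44. All 3 probe sets of Slc1a4 were thus lower in SVEC4-10, but only the one used passed 2-fold.

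Among the cationic amino acid carriers of SLC7, Slc7a1 and Slc7a2 went in opposite directions. Slc7a1, the main arginine and lysine carrier of most cells, had signals of 1341 and 775, a log2 ratio of -0.79 under 2-fold. Its other probe sets gave signals of 952 and 404 and of 45.2 and 15.3, with log2 ratios of -1.24 and, as a bound since 15.3 is below background, -1.36, so the ratio of this gene passed 2-fold at both of the probe sets not used. Slc7a2, an arginine carrier that is inducible in macrophages and liver, was below background in MS-1 (4.59) and had a signal of 94.6 in SVEC4-10. It was at least 5.80-fold higher there (log2 ratio 2.54), with a second probe set close to background (0.876 and 20.4). Slc7a3, a further cationic carrier, had signals of 20.3 and 26.2, and Slc7a4, a relative with no clear transport activity, 38.3 and 43.7, both within the error. Slc7a14 was not above background on either array.

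Light chains of the heteromeric exchangers gave the lowest ratio of the members and little signal for most others. Slc7a7 encodes the light chain that exports cationic amino acids in exchange for neutral ones, and its loss causes lysinuric protein intolerance. Its signal was 163 in MS-1 and 18.4 in SVEC4-10, just above background. This was an 8.85-fold difference (log2 ratio -3.15 ± 0.59), and the second probe set, at 73.0 and 10.8, the latter below background, was at least 4.14-fold higher in MS-1. The gene is also expressed by macrophages. Of the leukocyte markers above, Ptprc, Itgam and Cd3e were at background in both lines, and Cd68 was higher in MS-1. Csf1r (45.4 and 35.5), Adgre1 (23.9 and 12.9) and Laptm5 (26.3 and 2.48) had ratios under 2-fold. For Adgre1 and Laptm5, below background in SVEC4-10, these ratios are bounds. A part of macrophages in the Slc7a7 difference was not tested. Slc7a6, the close relative of Slc7a7 with the same exchange activity, had signals of 270.02 and 327, a log2 ratio of 0.28 that lies within the error, and 0.13 at its second probe set.

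Slc7a11 encodes the cystine and glutamate exchanger, whose cystine supplies glutathione synthesis. It had signals of 59.1 and 20.7, a 2.85-fold difference towards MS-1 (log2 ratio -1.51 ± 0.59). The second probe set had signals of 25.3 and 0.695, the latter below background, so it gives only a bound of at least 1.43-fold. With background doubled, the log2 ratio of Slc7a11 became a bound of -0.75, below 2-fold. Slc7a5, the exchanger of leucine and other large neutral amino acids, had signals of 306 and 458, a log2 ratio of 0.58 that lies just within the error of 0.59 but exceeds the smaller estimate of 0.48, and becomes 0.042 under the poly-A scaling. Of the 10 light chain genes, the remaining 6 (Slc7a8, Slc7a9, Slc7a10, Slc7a12, Slc7a13 and Slc7a15) were not above background on either array.

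The heavy chains that these light chains need were similar on both arrays. Slc3a2, the partner of most light chains, had signals of 1964 and 1560, a log2 ratio of -0.33 within the error. Slc3a1, the partner of Slc7a9 in kidney, had signals of 17.5 in MS-1, just above background, and 14.9 in SVEC4-10, below it. The difference in Slc7a7 and Slc7a11 was therefore not accompanied by one of 2-fold in Slc3a2.

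**Figure D2:**
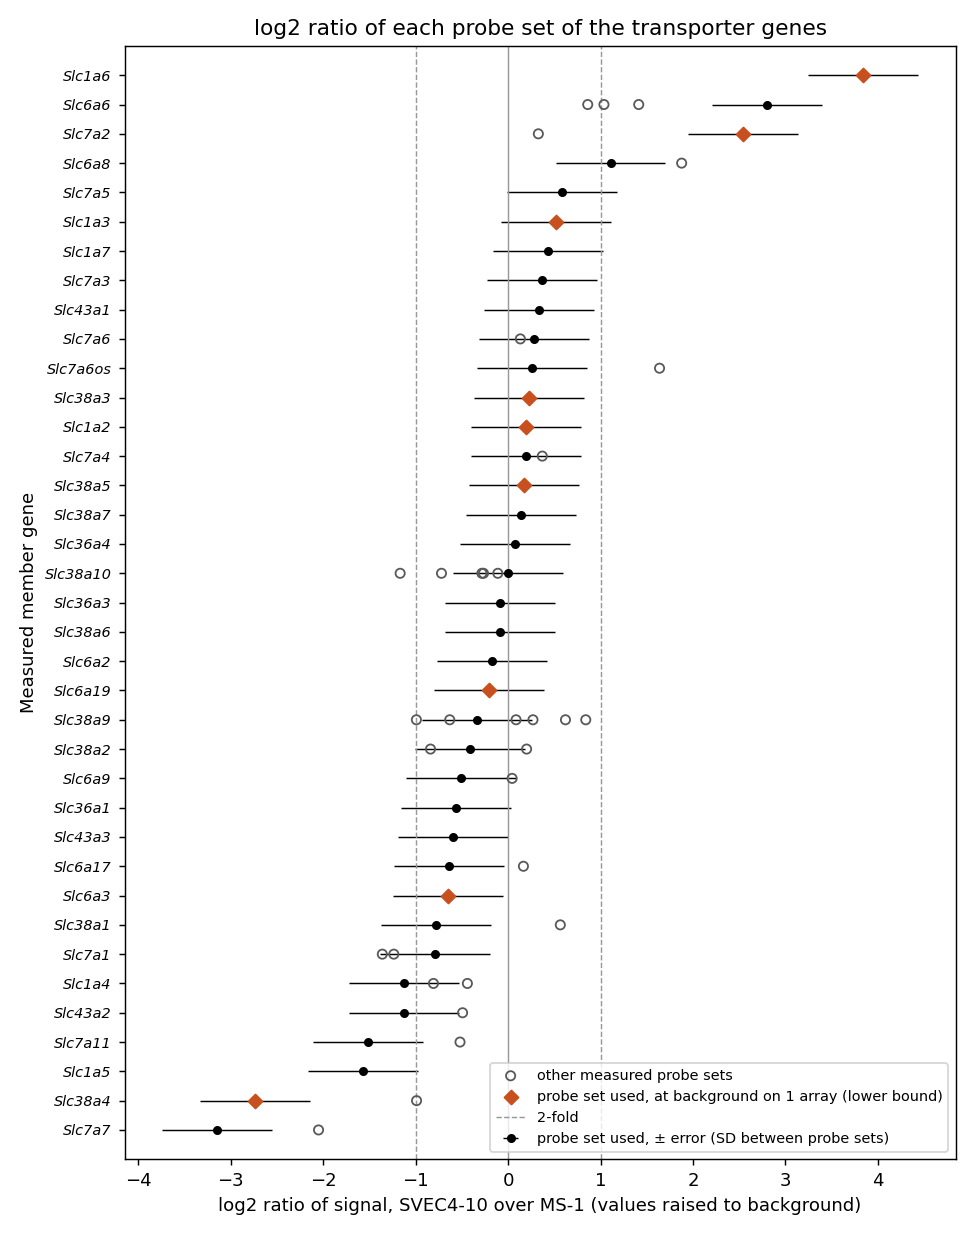
log2 ratio of signal (SVEC4-10 over MS-1) for each measured member: filled points are the probe set used, with bars of ± 0.59 (SD between probe sets of a gene), diamonds mark a lower bound, open circles are the other measured probe sets, and dashed lines mark 2-fold. At a diamond, the bar does not measure the spread of the ratio. The 10 members past 2-fold sit at the ends of the order. Probe sets spread over more than 1 log2 unit in 9 of the 18 members with several, Slc7a2, Slc6a6, Slc38a4 and Slc7a7 among them.

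All 9 SLC38 genes on the array were measured, and 1 of them was at least 2-fold apart. Slc38a4, a carrier of small neutral and cationic amino acids known from liver and placenta, had a signal of 117 in MS-1 and 1.82, below background, in SVEC4-10. It was at least 6.65-fold higher in MS-1, and its second probe set, with signals of 35.0 and 7.18, was at least 1.99-fold higher there. The log2 ratio of -2.73 is a bound, which became -1.73 with background doubled and -6.01 without a floor. Slc38a2, the carrier that rises when amino acids are withdrawn, had signals of 3193 and 2404, a log2 ratio of -0.41, with -0.84 and 0.20 at its other probe sets. Slc38a1, a glutamine carrier, had signals of 329 and 192 (log2 ratio -0.78) at the probe set used. A probe set of a less specific class gave 318 and 470 for Slc38a1, a log2 ratio of 0.56, so the direction for this gene depended on the probe set.

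The glutamine and histidine carriers of SLC38, Slc38a3 (1.70 and 19.1) and Slc38a5 (0.543 and 18.3), barely exceeded background in SVEC4-10. Slc38a9, the lysosomal carrier that senses arginine for mTORC1, had signals of 98.9 and 78.3, a log2 ratio of -0.34. Its 7 measured probe sets ranged from -0.99 to 0.84, with both signs, and 2 of the 7 were below background in MS-1, the one at 0.84 included. Slc38a10 had signals of 903 and 901, a log2 ratio of -0.0032, and its 6 measured probe sets ranged from -1.17 to that value. Slc38a7, a lysosomal exporter of glutamine and asparagine, had signals of 172 and 189, and Slc38a6 of 81.7 and 76.7, both within the error. Slc38a8 and Slc38a11 were not analysed here.

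The proton-coupled carriers of SLC36 did not differ by 2-fold. Slc36a1, which exports amino acids from lysosomes, had signals of 131 and 88.4 (log2 ratio -0.57), and Slc36a4 of 214 and 226 (log2 ratio 0.075). Slc36a3 was close to background (25.1 and 23.7), and Slc36a2 was not above it. Of the 3 SLC43 genes, Slc43a2, a uniporter of large neutral amino acids, was 2.18-fold higher in MS-1, with signals of 42.4 and 19.4. Its second probe set, at 25.1 and 17.9, had a log2 ratio of -0.49, and both probe sets lie near background. Slc43a3, which carries purine nucleobases, had signals of 926 and 615 (log2 ratio -0.59), and Slc43a1, a uniporter of leucine and similar amino acids, had 26.9 and 34.0.

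SLC6 contributed the most genes and the lowest share with signal among the 6 families, 7 of 21 being measured. The 2 that were at least 2-fold apart carry osmolytes or energy buffers and were higher in SVEC4-10. Slc6a6, the taurine transporter, had signals of 115 and 805, a 6.98-fold difference (log2 ratio 2.80 ± 0.59). The other 3 probe sets of Slc6a6 had signals of 3.76 and 43.4, 130 and 266, and 25.8 and 46.9, with log2 ratios of at least 1.41 (the first was below background in MS-1), 1.04 and 0.86. Each of the 4 was higher in SVEC4-10, and the 3 above background on both arrays ranged from 0.86 to 2.80. Slc6a8, the creatine transporter, had signals of 199.6 and 430.2 (2.16-fold, log2 ratio 1.11) and, at its second probe set, 136 and 499 (log2 ratio 1.88). Under the poly-A scaling, the log2 ratio of Slc6a8 was 0.57, below 2-fold.

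The SLC6 carriers of amino acids were within 2-fold or unmeasured. Slc6a9, the glycine transporter GlyT1, had signals of 236 and 166 (log2 ratio -0.51), with 0.044 at its second probe set. Slc6a17, a neutral amino acid carrier of synaptic vesicles, had signals of 44.2 and 28.4, and Slc6a19, the neutral amino acid carrier of gut and kidney, was close to background (20.4 and 12.8). Slc6a5, Slc6a7, Slc6a14, Slc6a15, Slc6a18, Slc6a20a and Slc6a20b were not above background on either array. Among the monoamine transporters, which do not carry amino acids, Slc6a3 had signals of 27.7 and 7.10 and Slc6a2 of 35.2 and 31.1, and Slc6a4 was not above background. The carriers of GABA and betaine Slc6a11, Slc6a12 and Slc6a13, together with Slc6a16 and Slc6a21, were likewise at background on both arrays.

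The 3 opposite-strand genes are not known as transporters. Slc7a6os had signals of 108 and 130 (log2 ratio 0.26), and was at least 3.11-fold higher in SVEC4-10 at a dimmer probe set (14.6, below background, and 50.7), while Slc36a1os and Slc6a19os were not above background. In all, 24 members were at background on both arrays, and 11 of the 37 measured had a brighter signal under 35.2, which is the higher background doubled. All 11 of these dim members were within 2-fold, where the background level itself limits how large a ratio can be.

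Promoter sequences were examined for the members that differed, since the C/EBP-ATF element is known from the promoters of several amino acid transporter genes. RefSeq promoters (GRCm38.p6, 250 bases before to 50 after a start) were found for 44 of the 61 members, including 5 of the 6 higher in MS-1 (all but Slc1a5) and 1 of the 4 higher in SVEC4-10 (Slc1a6). The core of that element, TGATGNAA, and the core of the antioxidant response element that binds NRF2, TGACNNNGC, were searched on both strands. The antioxidant core was added after the signals had been seen, as Slc7a11 is a known target of NRF2. TGATGNAA was found in 3 of the 5 promoter sets of members higher in MS-1, Slc7a11, Slc1a4 and Slc7a7. It was found in 0 of 20 members within 2-fold, in 0 of 1 higher in SVEC4-10, and in 1 of 18 not above background, Slc6a21. The share over all 32851 promoters was 3.97%, and 4.51% of all 27025 genes had a match in any of their promoters, which is how the members were counted. Slc7a7, with 5 listed promoters, had more chances of a match than Slc7a11 and Slc1a4, with 1 each. With only 5 members higher in MS-1, their share cannot be weighed against that of all genes.

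The antioxidant core was counted in the same way. TGACNNNGC was found in 0 of the 5 members higher in MS-1, Slc7a11 included, and in 0 of 1 higher in SVEC4-10. It was found in 6 of 20 members within 2-fold (Slc36a1, Slc38a2, Slc43a1, Slc6a9, Slc7a1 and Slc7a6) and in 4 of 18 not above background. The share over all promoters was 12.4%, and 14.0% of all genes had a match. Over all measured genes it was found in 17.1% of those at least 2-fold higher in MS-1, 17.5% of those higher in SVEC4-10 and 16.5% of the rest. No match says only that these letters are not in this window.

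The windows with a match are shown because these 3 genes hold every match of TGATGNAA among the measured members. They are printed 5′ to 3′ on the strand of the gene, with the matches in capitals.

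Slc7a11, chr3:50443633-50443699, minus strand: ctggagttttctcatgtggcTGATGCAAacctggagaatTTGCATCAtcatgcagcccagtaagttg

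Slc1a4, chr11:20332701-20332726, minus strand: cctcctgcgTTGCATCAtctccagcc

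Slc7a7, chr14:54417918-54417952, minus strand: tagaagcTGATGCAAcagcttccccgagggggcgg

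Slc7a7, chr14:54418058-54418105, minus strand: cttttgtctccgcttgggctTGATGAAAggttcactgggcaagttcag

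Slc7a11 holds 2 matches in opposite orientation, from 66 to 59 and from 47 to 40 bases before its start. The match of Slc1a4 is on the opposite strand and spans its start, with 4 bases on each side. Slc7a7 has 5 listed promoters, and its matches lie 243 to 236 bases before one start and 141 to 134 bases before another. The first of these sites also spans that other start, with 1 base before it and 7 from it on. All 3 genes had lower signal in SVEC4-10 at each measured probe set. Over all measured genes, TGATGNAA was found in 3.43% of those at least 2-fold higher in MS-1, 3.14% of those higher in SVEC4-10 and 2.60% of the rest. A match describes these letters only, and binding was not measured.

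The list of the ATF4 amino acid response differed in both directions. Besides genes known to respond through ATF4, it holds Atf4 itself and the kinase genes Eif2ak1, Eif2ak2, Eif2ak3 and Eif2ak4. Of its 29 measured genes, 6 were at least 2-fold higher in MS-1, 7 in SVEC4-10 and 16 on neither. Over all measured genes these shares were 12.1%, 15.1% and 72.8%. The median log2 ratio of the list was -0.60 against 0.015 for all genes. Eif2ak2 (308 and 976, log2 ratio 1.66) is among the 7, so the counts do not describe ATF4-responsive genes alone. Trib3, a pseudokinase that restrains ATF4, had signals of 1297 and 226 (log2 ratio -2.52, and -1.85 at its second probe set), and Atf3, a related factor, of 505 and 102 (log2 ratio -2.31). Vldlr, a lipoprotein receptor, was below background in MS-1 (13.6) with 175 on the other, although its 6 probe sets ranged from 0.26 to 3.71. Cth, which makes cysteine from cystathionine, had signals of 45.4 and 209 (log2 ratio 2.20). Atf4 itself had signals of 3541 and 1956, a log2 ratio of -0.86, under 2-fold.

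The list of cystine use and glutathione also holds genes that NRF2 drives. Of its 12 measured genes, 3 were at least 2-fold higher in MS-1, 0 in SVEC4-10 and 9 on neither (median -0.42). The matching shares of all measured genes were 12.1%, 15.1% and 72.8%. Nqo1, a quinone reductase, had signals of 282 and 82.0 (log2 ratio -1.78). Hmox1, haem oxygenase, had signals of 2062 and 626 (log2 ratio -1.72), and Nfe2l2, the factor NRF2 that drives such genes, 1937 and 872 (log2 ratio -1.15). Gpx4, the lipid peroxide reductase, had signals of 2839 and 5430 (log2 ratio 0.94). Nqo1, Hmox1, Nfe2l2 and the member Slc7a11 were thus each at least 2-fold higher in MS-1. The 9 genes within 2-fold include Gclc (log2 ratio -0.41), Txnrd1 (-0.29), Gclm (-0.67, and 0.60 at its other probe set) and Gsr (-0.93, and -0.094 at its other probe set). A part of NRF2 in these values was not tested.

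Amino acid sensing by mTORC1 was mostly within 2-fold, with 2 of 31 measured genes higher on each array, 27 on neither and a median of 0.021. Among all measured genes, 12.1% were higher in MS-1, 15.1% in SVEC4-10 and 72.8% within 2-fold. Sesn1, a leucine-sensing sestrin, had signals of 37.9 and 342 (log2 ratio 3.18, and at least 2.21 at each of its 3 probe sets). Castor1, the cytosolic arginine sensor, had signals of 198 and 64.7 (log2 ratio -1.61). Its relative Castor2 had signals of 186 and 62.5 (log2 ratio -1.58), with 4 probe sets from -1.58 to -0.47. Rragd, a Rag GTPase, was below background in MS-1 (0.46) and had a signal of 34.9 on the other.

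Other transporters and enzymes of amino acids were mostly within 2-fold, as were 72.8% of all measured genes. The shares of all measured genes past 2-fold were 15.1% towards SVEC4-10 and 12.1% towards MS-1. Of 6 measured carriers of other families, 2 were higher in SVEC4-10 and 4 on neither. These were Mfsd12, a lysosomal cysteine carrier (71.8 and 169), and Slc17a5, the lysosomal sialic acid exporter (78.9 and 181). Slc16a10, a carrier of aromatic amino acids, had signals of 244 and 158, and Slc66a1, a lysosomal exporter of cationic amino acids, of 88.0 and 122. Of 9 mitochondrial carriers, 2 were higher in MS-1, Slc25a13, the aspartate and glutamate carrier citrin (474 and 192), and Slc25a39, a carrier of glutathione (875 and 437). Slc25a29, a carrier of basic amino acids, was higher in SVEC4-10 (40.3 and 102), and Slc25a22, a glutamate carrier, had signals of 105 and 66.1.

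Of 21 measured enzymes of amino acid metabolism, 3 were higher in SVEC4-10, 2 in MS-1 and 16 on neither (median 0.15). For all measured genes the shares were 15.1%, 12.1% and 72.8%. Bcat2, the mitochondrial branched-chain transaminase, had signals of 60.1 and 237 (log2 ratio 1.98), and Bckdhb, a subunit of the dehydrogenase complex that follows it, 173 and 385 (log2 ratio 1.16). The third, Bckdha, another subunit of that complex, had a log2 ratio of 1.04. Bcat1, the cytosolic branched-chain transaminase, had signals of 175 and 194 (log2 ratio 0.15), within 2-fold. Prodh, proline dehydrogenase (58.5 and 13.0, the latter below background), and Glul, glutamine synthetase (311 and 118, log2 ratio -1.39), were higher in MS-1.

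**Figure D3:**
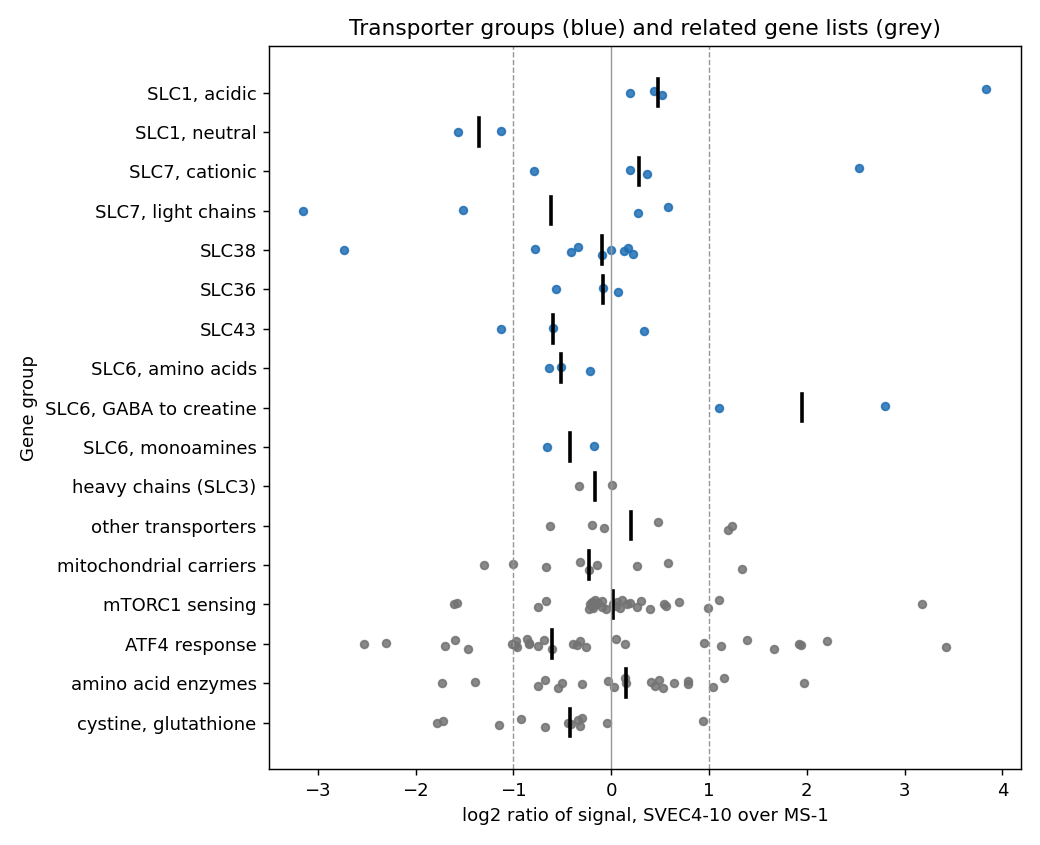
log2 ratio of signal (SVEC4-10 over MS-1) of each measured gene, by transporter group (blue) and related gene list (grey), with the median of each group as a black bar and dashed lines at 2-fold. The neutral SLC1 exchangers (median -1.35) and the SLC6 group from GABA to creatine (median 1.96) rest on 2 genes each, and the ATF4 list (median -0.60) and the cystine and glutathione list (median -0.42) lie lower than the mTORC1 list (median 0.021).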

How the data were processed

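Total RNA of each line, 6 µg, was labelled as biotinylated cRNA and hybridised to 1 Affymetrix array, per the labels' protocols. The values are intensities per probe set on a linear scale, as deposited by the authors. How they were summarised is not given in the sources used here. On both arrays the 2%-trimmed mean was 150.001, so each had been scaled to 1 target, and this assumes equal total signal in both lines. The array has 45101 probe sets. Among these, 34945 named a single gene, and 34741 of those matched the RefSeq table of GRCm38.p6 by gene identifier. Controls (64), probe sets of several genes (932) and those unnamed here (9160) were not used for members. A probe set shared by Slc1a2 and Gm13872 was left out (3.27 and 3.97).

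A gene was represented by its measured probe set of highest mean log2 signal, avoiding the _s_at and _x_at classes where another existed. Named were all members, up to 4 genes of each related list by absolute log2 ratio, both heavy chains, and a few markers. Atf4, Bckdha, Bcat1, Gclc, Gclm, Gsr, Txnrd1, the leukocyte markers at background and the motif TGACNNNGC were added after values were seen, as was the second estimate of the error. Members and lists were chosen with earlier results of these data known. Levels of different genes were not compared, since probe sets differ in response. The number of arrays limits the precision.

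The alternatives were 3 scalings, 3 backgrounds, 3 choices of probe set, the annotation's own symbols and other thresholds. The steps were tested on simulated data in which genes bright on both arrays were given large differences. That test does not bear on dim genes or on ratios near 2-fold. Python 3.11.15, NumPy 2.4.6, pandas 2.3.3 and SciPy 1.17.1 were used.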

Additional observations from a re-analysis of the deposited data

How the results depend on the processing

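Each of the 10 members at least 2-fold apart kept its direction under every one of the 10 alternatives that gave it a value. A ratio past 2-fold could hardly reverse under the scalings or backgrounds, so this lends no support. Only probe sets of one gene could differ in sign, and their agreement is given above. Slc1a5, Slc1a6 and Slc7a7 stayed at least 2-fold apart under every alternative that gave them a value. Slc38a4, Slc6a6, Slc6a8 and Slc7a2 did so in 9 of 10, Slc1a4 and Slc7a11 in 8 of 10, and Slc43a2 in 7 of 10. Slc7a7 had no value without the less specific probe sets. Of 359 single log2 ratios, 328 moved by less than the error of 0.59, 31 by more, and 0 of those past 2-fold reversed. Many of the 328 could not have moved further, so their share is no measure of stability. The poly-A scaling shifts every ratio by 0.54, and the annotation's own symbols changed no ratio. A gene with 1 measured probe set cannot change with the choice of probe set. Scaled to the poly-A controls, 13 members were at least 2-fold and 4 at least 4-fold higher in MS-1, and the median was -0.63, or -0.10 relative to all genes. With background doubled, 27 members were measured and 1 was at least 4-fold higher in MS-1. Without a floor, 8 members were at least 2-fold and 7 at least 4-fold higher in SVEC4-10, the 4 added at 2-fold being Slc1a2, Slc1a3, Slc38a3 and Slc38a5, which were below background in MS-1 and near it in SVEC4-10. The mean over probe sets gave 1 member at least 4-fold higher on each array. Taking the smallest ratio of each gene gave 2 members at 2-fold and 1 at 4-fold on each array. Without the less specific probe sets, 1 member was at least 4-fold higher in MS-1. At 8-fold, 1 member passed on each side, and at 1.5-fold 11 were higher in MS-1. Under the other settings the counts stayed within 1.5 times. The error itself fell from 0.59 to 0.48 when only probe sets above background on both arrays entered it, a setting added after seeing the data. The 10 members past 2-fold exceed both values because of how they were picked, since 2-fold is a log2 ratio of 1, so this lends them no support. No paired analysis was possible because each line has 1 array. Signal near background limits 11 of the 37 measured members.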

Other observations

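Slc38a1, Slc38a2 and Slc38a4 follow each other in the RefSeq order of protein-coding genes. Their log2 ratios were -0.78, -0.41 and -2.73, so the neighbours differed in size, and only Slc38a4 passed 2-fold. Slc7a6 and Slc7a6os, also neighbours, had log2 ratios of 0.28 and 0.26. Slc38a9 had the most measured probe sets of the members, 7, and 4 of them were higher in SVEC4-10 and 3 in MS-1.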
